A study of Mus musculus with 17 samples.

Results

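The Fos and Jun genes, with Atf3, Batf3 and Dusp1, were followed in brown adipose tissue of wild-type and Noct knockout mice kept warm or cold. The 10 genes, Fos, Fosb, Fosl1, Fosl2, Jun, Junb, Jund, Atf3, Batf3 and Dusp1, were chosen by symbol, and all 10 had a row among the 21982 genes of the deposited count table. Of these, 8 had enough reads to be among the 12486 genes tested, while Fosl1 and Batf3 fell under the filter on low counts. Atf3 had the largest fitted change of the 8 tested genes after 4 h of cold, rising in both genotypes, and Jun, Jund, Fosl2 and Dusp1 rose in both by smaller factors. Fos, Fosb and Junb did not pass the test in either genotype.

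The AP-1 transcription factor is a dimer of leucine-zipper (bZIP) proteins, made of a Jun protein paired with another Jun or with a Fos protein, and it binds a short palindromic DNA element. Atf3 and Batf3 encode bZIP proteins that can pair with Jun proteins, and Dusp1 encodes a phosphatase that switches off the MAP kinases which activate Fos and Jun. Many of these genes are immediate-early genes, transcribed within minutes of a stimulus and soon silent again, with RNAs that are short-lived. In brown fat, cold acts through noradrenaline, beta-adrenergic receptors and cyclic AMP, and cyclic AMP signalling reaches genes through the cyclic AMP response element (CRE), which bZIP proteins of the CREB and ATF families bind.

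Each of the 17 libraries came from 1 mouse labelled C57BL/6, single-housed without food for 4 h. There were 4 Noct+/+ mice at 22 °C (3 female, 1 male), 5 Noct+/+ mice at 6 °C (4 female, 1 male), 4 Noct-/- mice at 22 °C (1 female, 3 male) and 4 Noct-/- mice at 6 °C (1 female, 3 male). The single female of each knockout group was its replicate 1. Labelled ages ran from 11.14 to 23.57 with no unit on the label, the series text speaks of weeks, and which exons of Noct the mutation takes out is not stated in the labels. Library totals lay between 18410748 and 47598200 counts, and mitochondrially encoded genes took 43.43 to 57.29% of them. Noct itself averaged 140 ± 35.6 CPM (read counts scaled to library size, SD, n = 4) and 346 ± 81.7 CPM (n = 5) in wild types at 22 °C and 6 °C, and 13.2 ± 14.3 CPM and 22.6 ± 4.46 CPM (n = 4 each) in knockouts. Every knockout library was below every wild-type library. Of the 10 brown adipocyte markers examined none was at 0 in any group, and their summed level was 10470 to 11780 CPM in warm and 13360 to 16360 CPM in cold wild types, without overlap, and 10540 to 14120 CPM in warm and 13170 to 17080 CPM in cold knockouts, with overlap. Ucp1, with the highest mean of the 10 (5835 CPM over all libraries), rose in both genotypes, as did Elovl3 and Ppargc1a. Prdm16 and Adipoq fell in wild types, and Cidea, Cox7a1, Cox8b, Fabp4 and Plin1 did not pass in either genotype. The median log2 change of the 10 was -0.0133 in wild types and 0.0877 in knockouts. The part of this shift of the summed level in the cold responses given here was not tested. In bulk tissue, fewer cells of a type and less RNA per cell cannot be told apart.

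The stretch just before the transcription start is shown for 4 of the genes, because 3 of them rose and the other, Fos, did not. Each is 250 bases from RefSeq on GRCm38.p6, printed 5′ to 3′ on the gene's own strand and ending 1 base before the start. Capitals mark matches to the AP-1 site TGANTCA, the 8-base form TGANNTCA, the full CRE TGACGTCA or the CRE half-site TGACG on either strand.
Atf3, chr1:191183334-191183583, minus strand: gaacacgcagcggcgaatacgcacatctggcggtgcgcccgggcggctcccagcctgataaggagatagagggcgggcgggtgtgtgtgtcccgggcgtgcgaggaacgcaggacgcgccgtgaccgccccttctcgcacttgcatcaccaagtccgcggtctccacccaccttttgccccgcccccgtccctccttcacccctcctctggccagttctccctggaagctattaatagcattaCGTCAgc
Jun, chr4:95052223-95052472, minus strand: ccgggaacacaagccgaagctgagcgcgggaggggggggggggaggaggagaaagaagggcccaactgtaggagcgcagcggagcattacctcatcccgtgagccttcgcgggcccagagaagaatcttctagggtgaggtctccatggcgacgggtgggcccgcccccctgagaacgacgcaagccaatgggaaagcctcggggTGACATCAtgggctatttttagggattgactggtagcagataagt
Dusp1, chr17:26508473-26508722, minus strand: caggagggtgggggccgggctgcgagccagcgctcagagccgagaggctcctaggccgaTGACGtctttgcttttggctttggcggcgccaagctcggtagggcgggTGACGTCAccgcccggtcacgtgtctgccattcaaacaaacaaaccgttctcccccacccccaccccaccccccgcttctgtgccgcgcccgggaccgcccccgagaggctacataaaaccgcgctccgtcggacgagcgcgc
Fos, chr12:85473640-85473889, plus strand: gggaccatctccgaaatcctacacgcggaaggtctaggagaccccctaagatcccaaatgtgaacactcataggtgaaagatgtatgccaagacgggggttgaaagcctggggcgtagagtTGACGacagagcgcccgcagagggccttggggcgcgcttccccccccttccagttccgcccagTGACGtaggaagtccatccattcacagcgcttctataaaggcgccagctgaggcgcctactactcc

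In these windows, Dusp1 carried a full CRE 143 to 136 bases before the start and a second half-site, Atf3 a half-site 7 to 3 bases before the start, Fos a pair of half-sites, and Jun the 8-base form TGACATCA 45 to 38 bases before the start. The promoter table held 9 of the 10 genes. The full CRE was present in 1 of the 9 and in 1.62% of all 27025 promoters, and the half-site, which is also part of the full CRE, in 5 of the 9 (Fos, Fosb, Junb, Atf3 and Dusp1) and in 17.9% of all. The 8-base form, which takes in the full CRE, was in 3 of the 9 (Jun, Jund and Dusp1) and in 12% of all, and TGANTCA in 0 of the 9 and in 6.87% of all. A TATA box (TATAAA) was in 1 of the 9, Fos, and in 13% of all, and the CArG box bound by serum response factor was in 0 of the 9 and 1.4% of all. Among the genes with a half-site, Atf3 and Dusp1 rose in the cold and Fos, Fosb and Junb did not pass. A match describes the letters and not occupancy, and letters outside the window were not searched. The annotated Dusp1 gene reaches to 26562128 on chromosome 17, upstream of the window shown, so it has a further annotated start there.

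The genes differed widely in their basal RNA level when expressed per gene length. In wild types at 22 °C, mean RPKM (reads per gene length and library total) was 20.2 ± 8.51 for Dusp1, 9.90 ± 3.04 for Jund, 7.69 ± 1.89 for Jun, 3.14 ± 0.438 for Fosl2, 2.89 ± 1.31 for Junb, 2.73 ± 2.24 for Atf3 and 1.495 ± 1.53 for Fos (SD, n = 4). Below these stood Fosb at 0.256 ± 0.124, Batf3 at 0.0344 ± 0.0307 and Fosl1 at 0.0262 ± 0.0170 RPKM. The gaps between Jund and Jun, and among Fosl2, Junb, Atf3 and Fos, were within the spread of the 4 animals. In cold wild types Atf3, at 13.2 ± 6.65 RPKM, stood beside Jund, at 13.01 ± 1.63 RPKM, and Jun, at 10.6 ± 1.68 RPKM (n = 5), and these 3 were within their spread of each other. In cold knockouts the same 3 genes were at 10.6 ± 6.60, 11.9 ± 3.88 and 9.26 ± 1.61 RPKM (n = 4).

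**Figure D1:**
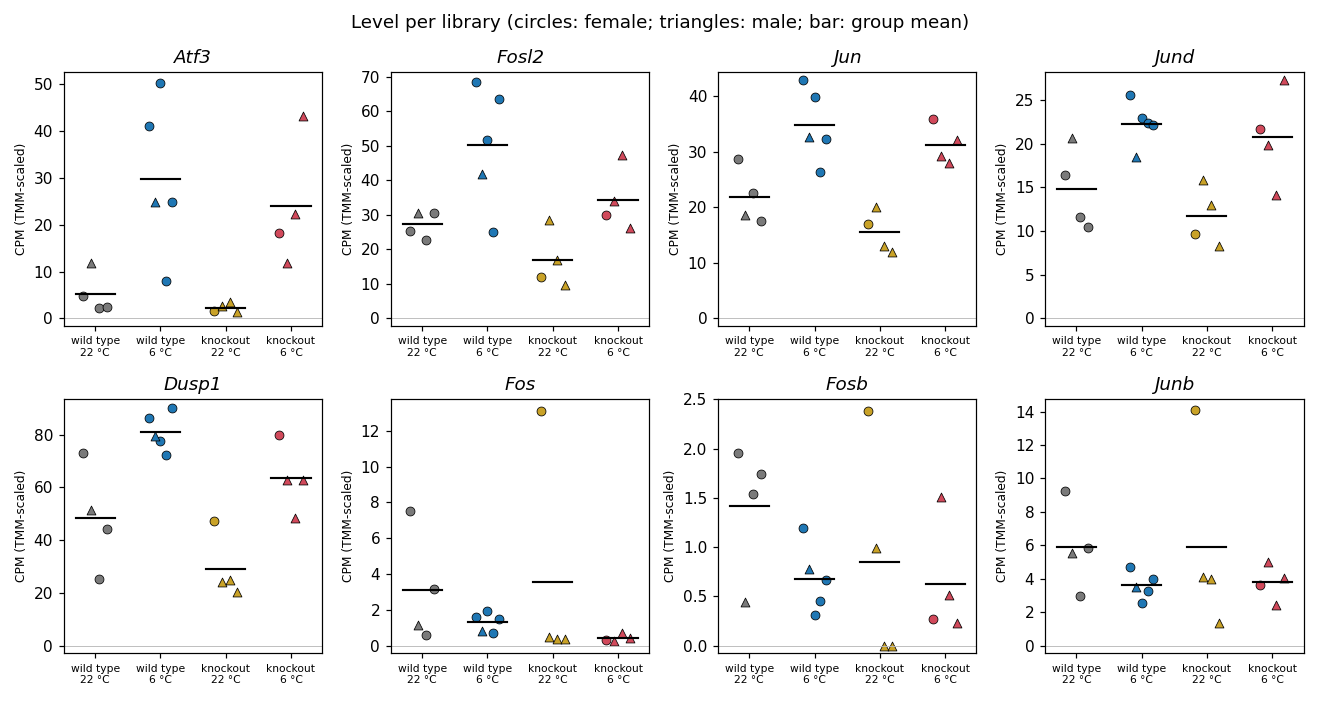
Level of each of the 8 tested genes in every library in CPM (vertical axes, linear, a separate scale for each gene), by group; circles are females, triangles are males and the bar is the group mean. Atf3 reaches 50.1 CPM in cold wild types and 43.1 CPM in cold knockouts against at most 11.7 CPM at 22 °C, and the highest Fos value, 13.1 CPM, is a single female knockout at 22 °C.

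Atf3 encodes a stress-induced bZIP protein that acts as a repressor when it binds as a homodimer. The gene lies on the minus strand of chromosome 1 (GRCm38, 191170296 to 191218039) and has further annotated starts upstream of the window shown above. Wild types at 22 °C gave 4.84, 11.7, 2.21 and 2.40 CPM in replicate order, and wild types at 6 °C gave 41.1, 24.8, 50.1, 7.97 and 24.8 CPM. The groups overlapped through 1 library on each side, since warm replicate 2, the male of its group, was above cold replicate 4. Knockouts gave 1.55, 2.60, 3.40 and 1.33 CPM at 22 °C and 18.2, 11.8, 22.3 and 43.1 CPM at 6 °C. There the lowest cold library was above the highest warm one. Atf3 was 6.55-fold higher in the cold in wild types (log2 fold change 2.71 ± 0.53, SE, edgeR adjusted p = 0.00135) and 10.8-fold higher in knockouts (3.44 ± 0.57, adjusted p = 0.000482).

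Jun, Jund and Fosl2 are the AP-1 subunit genes that rose. Jun encodes the founding subunit, which can activate as a homodimer or with a Fos protein. It measured 28.7, 18.6, 22.6 and 17.6 CPM in warm wild types and 42.8, 32.7, 39.7, 26.3 and 32.3 CPM in cold ones. Only cold replicate 4 was under a warm library, replicate 1. In knockouts Jun measured 17.1, 20.0, 12.99 and 11.9 CPM at 22 °C and 35.8, 29.2, 27.9 and 32.1 CPM at 6 °C, with no overlap. Its level rose 1.58-fold in wild types (log2 0.66 ± 0.17, SE, edgeR adjusted p = 0.00809) and 2.01-fold in knockouts (1.01 ± 0.18, adjusted p = 0.000864). Tested with limma on log2(RPKM + 1) and log2(RPKM + 0.1), the wild-type change was 0.41 and 0.45 and did not pass (adjusted p = 0.0611 and 0.0694).

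Jund, whose protein is the Jun subunit present in most resting cells, measured 16.4, 20.7, 11.6 and 10.5 CPM in warm and 25.6, 18.4, 23.0, 22.3 and 22.1 CPM in cold wild types. Cold replicate 2 was below warm replicate 2, and the other 4 cold libraries were above all warm ones. In knockouts it measured 9.62, 15.9, 12.9 and 8.24 CPM at 22 °C and 21.7, 19.8, 14.2 and 27.3 CPM at 6 °C, where cold replicate 3 lay below warm replicate 2. The increase was 1.53-fold in wild types (log2 0.61 ± 0.22, SE, edgeR adjusted p = 0.0454) and 1.79-fold in knockouts (0.84 ± 0.23, adjusted p = 0.0152). The wild-type call was near the threshold, and 10 of the 17 libraries, left out 1 at a time, ended it (wild-type warm replicates 1, 3 and 4, wild-type cold replicates 1, 3, 4 and 5, knockout warm replicates 1 and 3 and knockout cold replicate 2, adjusted p up to 0.149). It was also lost with no sex term (adjusted p = 0.0518), with sex and age (adjusted p = 0.0518) and with both limma fits on RPKM (adjusted p = 0.201 and 0.207). In knockouts it was lost with males alone (adjusted p = 0.157) and with both limma fits (adjusted p = 0.0637 and 0.0618).

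Fosl2 encodes Fra-2, a Fos protein that lacks the strong activation domain of Fos. Warm wild types gave 25.3, 30.4, 22.8 and 30.5 CPM and cold ones 68.5, 41.8, 51.7, 25.1 and 63.7 CPM. Cold replicate 4 sat among the warm libraries and the other 4 cold libraries were above them. Warm knockouts gave 11.98, 28.5, 17.0 and 9.74 CPM and cold ones 30.0, 34.1, 47.3 and 26.2 CPM, with cold replicate 4 below warm replicate 2. Fosl2 rose 1.87-fold in wild types (log2 0.90 ± 0.29, SE, edgeR adjusted p = 0.0301) and 2.05-fold in knockouts (1.04 ± 0.31, adjusted p = 0.0231). In wild types the call was lost without any one of warm replicates 1, 2 and 3 and cold replicates 1, 3 and 5 (adjusted p up to 0.0812), and in knockouts without warm replicate 1 or 4 or cold replicate 3 (adjusted p up to 0.079). Limma on log2(RPKM + 1) and log2(RPKM + 0.1) also ended the wild-type call (adjusted p = 0.103 and 0.139), and in knockouts males alone and limma on log2(RPKM + 1) did so (adjusted p = 0.127 and 0.0521).

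Dusp1, the MAP kinase phosphatase gene, measured 72.9, 51.5, 25.1 and 44.1 CPM in warm wild types and 86.3, 79.5, 77.5, 72.3 and 90.0 CPM in cold ones. The groups met where warm replicate 1 was just above cold replicate 4. In knockouts it measured 47.2, 24.1, 24.9 and 20.4 CPM at 22 °C and 80.1, 62.8, 48.5 and 62.8 CPM at 6 °C, and the groups did not overlap. The rise was 1.65-fold in wild types (log2 0.72 ± 0.24, SE, edgeR adjusted p = 0.033) and 2.22-fold in knockouts (1.15 ± 0.25, adjusted p = 0.00377). Leaving out wild-type warm replicate 3 or 4 or cold replicate 1, 2 or 5 ended the wild-type call (adjusted p up to 0.0995), and so did females alone (adjusted p = 0.0727) and limma on log2(RPKM + 1) and log2(RPKM + 0.1) (adjusted p = 0.0967 and 0.101). The gene shares 11 exonic bases with Ergic1 on the other strand, a gene that rose in both genotypes (log2 0.84 and 0.63).

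**Figure D2:**
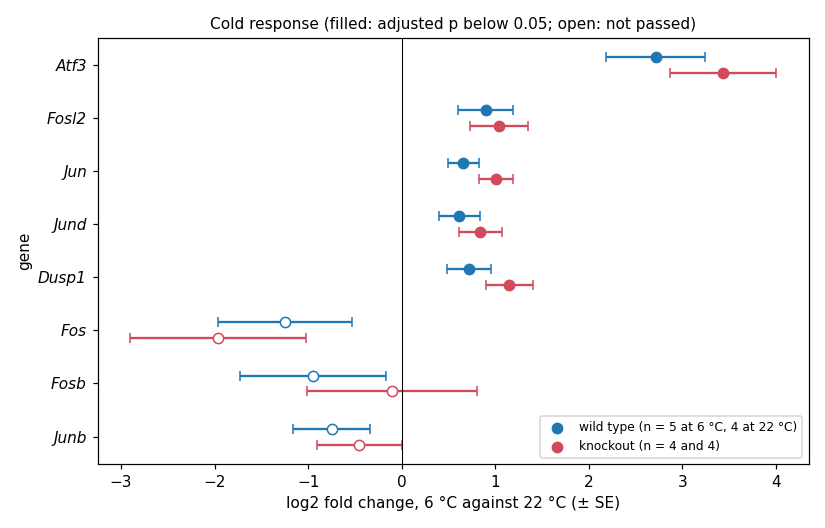
Fitted log2 fold change of the 8 tested genes at 6 °C against 22 °C (horizontal axis, bars are SE) in wild types and knockouts, filled where the adjusted p was below 0.05. Atf3 lies at 2.71 and 3.44, Fosl2, Jun, Jund and Dusp1 between 0.61 and 1.15, and the open symbols of Fos, Fosb and Junb have bars of 0.41 to 0.94.

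Fos, the founding Fos gene and the usual marker of recent stimulation, was low in most libraries. It measured 7.50, 1.17, 0.575 and 3.15 CPM in warm wild types and 1.59, 0.837, 1.94, 0.683 and 1.48 CPM in cold ones. Warm knockouts gave 13.1, 0.481, 0.344 and 0.375 CPM and cold knockouts 0.301, 0.271, 0.690 and 0.427 CPM. The female warm knockout, replicate 1, stood 27.3-fold above the next knockout of its group, and warm wild-type replicate 1 was the second highest of all libraries. The groups overlapped in both genotypes, and the fitted log2 changes of -1.24 ± 0.72 in wild types and -1.96 ± 0.94 in knockouts (SE) did not pass in edgeR (adjusted p = 0.209 and 0.154). Without warm knockout replicate 1 the knockout value was -0.11, and in knockout males alone it was 0.18. With no sex term it was -3.12 and passed (adjusted p = 0.0435), and in that fit too the warm knockout group holds the library at 13.1 CPM. The sex term of the fit for Fos (male minus female) was -2.17 ± 0.65 (SE, adjusted p = 0.517).

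Fosb, a close relative of Fos whose splice form delta-FosB lasts longer than Fos, gave 1.95, 0.442, 1.54 and 1.74 CPM in warm and 1.19, 0.775, 0.310, 0.455 and 0.665 CPM in cold wild types. In warm knockouts it was 2.38 and 0.994 CPM in replicates 1 and 2, with 0 counts in replicates 3 and 4, which allows up to 0.115 and 0.125 CPM (3 counts). Cold knockouts gave 0.267, 1.51, 0.517 and 0.230 CPM. All groups overlapped, and the log2 changes of -0.95 ± 0.78 and -0.11 ± 0.91 (SE) did not pass in edgeR (adjusted p = 0.39 and 0.958). In the wild-type females alone the change was -1.45 and passed (adjusted p = 0.0259).

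Junb encodes a Jun protein that activates more weakly than Jun and can restrain it. It measured 9.25, 5.54, 2.99 and 5.85 CPM in warm and 4.70, 3.53, 2.56, 3.25 and 3.99 CPM in cold wild types. Warm knockouts gave 14.1, 4.11, 3.97 and 1.33 CPM and cold knockouts 3.64, 4.99, 2.41 and 4.07 CPM. Replicate 1 was again the highest of each warm group, and the cold values lay inside the warm range except for replicate 3 of the wild types. The log2 changes were -0.75 ± 0.41 and -0.45 ± 0.45 (SE, edgeR adjusted p = 0.188 and 0.533).

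Fosl1, which encodes Fra-1, another Fos protein without the strong activation domain, had between 0 and 14 counts per library. Its counts were 3, 1, 1 and 1 in warm wild types, 9, 14, 2, 8 and 10 in cold wild types, 1, 1, 0 and 0 in warm knockouts and 7, 5, 3 and 5 in cold knockouts. In CPM every cold library was above every warm library of its genotype. In wild types this rested on 0.0776 CPM in cold replicate 3 (2 counts) against 0.0760 CPM in warm replicate 1 (3 counts). In RPKM these 2 libraries were in the other order, at 0.0403 and 0.0510, so the wild-type groups overlapped. The summed counts give a ratio of 7.88 (exact 95% interval 3.34 to 22.6) in wild types and 10.6 (2.58 to 93.7) in knockouts, where the intervals cover counting error only. With no filter on low counts, 17103 genes were tested in edgeR and Fosl1 passed in wild types (log2 2.86 ± 0.64, SE, adjusted p = 0.00353) and in knockouts (3.14 ± 0.82, adjusted p = 0.0129). Fosl1 shares 1163 exonic bases with Ccdc85b on the opposite strand, and without a stated strand setting reads of both genes cannot be told apart. Ccdc85b itself had log2 changes of -0.61 ± 0.33 and -0.32 ± 0.36 (SE, edgeR adjusted p = 0.188 and 0.593).

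Batf3, needed for the development of type 1 dendritic cells, had 4, 0, 2 and 1 counts in warm wild types, 1, 0, 1, 2 and 1 in cold wild types, 1, 1, 0 and 0 in warm knockouts and 0, 0, 3 and 2 in cold knockouts. No direction was detectable at this depth. With no filter its log2 changes in edgeR were -0.37 ± 1.00 and 1.43 ± 1.25 (SE, adjusted p = 0.856 and 0.546).

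In wild types, 5 of the 8 tested members rose and 0 fell, against 14.3% of all tested genes that rose and 13.3% that fell. In knockouts the same 5 rose and 0 fell, against 11.6% and 10.0% of all tested genes. No member had an unadjusted edgeR p below 0.05 in the lower direction, and 0 fell by DESeq2 or limma. The number that rose was 5 and 5 by DESeq2, and 1 and 3 by limma on log2(RPKM + 1). The median log2 change of the 8 was 0.637 in wild types and 0.922 in knockouts, beside -0.0272 and -0.0212 over all tested genes. In CPM, 0 of the 8 had groups that did not overlap in wild types, where 25.8% of all tested genes did, and 3 of the 8 (Atf3, Jun and Dusp1) in knockouts, where 20.2% did. Scaling to total counts in place of TMM shifted the median over all genes, as a difference of group means of log2 CPM, from -0.0287 to -0.226 in wild types and from -0.0351 to -0.106 in knockouts. By that measure each of the 8 genes kept its sign under both scalings in both genotypes, and Fosb in knockouts was above 0 (0.757 and 0.655), unlike its fitted value. Of the genes called, 51.8% in wild types and 53.6% in knockouts were higher in the cold, and in the limma fit on RPKM, which is scaled to total counts, 22% and 41.3%.

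Summed over the 7 Fos and Jun genes, RNA per gene length was 25.4 ± 5.92 RPKM in warm and 31.0 ± 4.91 RPKM in cold wild types, and 17.9 ± 7.16 and 26.3 ± 4.99 RPKM in warm and cold knockouts (SD). Jund took the largest mean share in every group, 39.0, 42.4, 41.7 and 44.1% in warm wild types, cold wild types, warm knockouts and cold knockouts. Jun followed with 30.7, 34.2, 28.5 and 35.3%, and Fosl2 took 12.8, 15.9, 10.0 and 13.2%. Junb went from 11.04 ± 3.13% (range 7.15 to 13.8%) to 4.96 ± 0.924% (3.31 to 5.51%) in wild types, and the 2 ranges did not overlap. In knockouts its shares of 12.6 ± 8.63% and 5.88 ± 1.498% overlapped. Fos averaged 5.34 ± 4.52% and 1.70 ± 0.536% in wild types, and 6.57 ± 10.8% and 0.671 ± 0.387% in knockouts, where the warm mean holds 1 library at 22.8%. These shares are a description without a test, and a share moves when any other of the 7 genes moves.

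**Figure D3:**
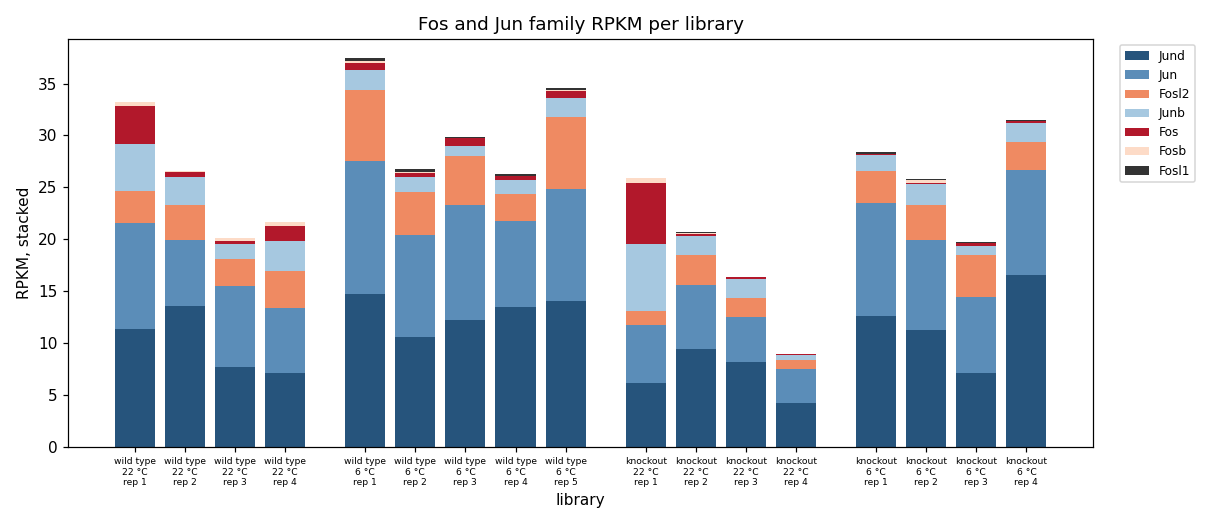
RPKM of the 7 Fos and Jun genes stacked in each library (vertical axis, linear, from 0), grouped by genotype and temperature. Jund and Jun fill most of the bar in all 4 groups, and the Fos band is widest in the warm replicate 1 of each genotype, reaching 22.8% of the bar in the knockout.

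In the comparison of genotypes at the same temperature, 0 of the 8 members passed in edgeR. At 22 °C, 0.0160% of all tested genes passed, 0 members passed by DESeq2 or limma, and 3 members had an unadjusted p below 0.05, all lower in knockouts, where 3.89% of all tested genes were under that value. These were Atf3 (log2 -1.501 ± 0.57), Fosl2 (-0.79 ± 0.34) and Dusp1 (-0.61 ± 0.26, SE), each with an adjusted p of 0.998 in edgeR. The Atf3 value was -0.71 without wild-type replicate 2, the library at 11.7 CPM, and the Dusp1 value -0.39 without that same library. The groups overlapped in CPM for each of the 8 genes, while 4.22% of all tested genes had no overlap. At 6 °C, 0.0400% of all tested genes passed, and of the members 0 had an unadjusted edgeR p below 0.05 and 0 passed by DESeq2 or limma. The values there ran from -0.78 ± 0.54 for Atf3 and -0.66 ± 0.33 for Fosl2 to 0.50 for Fosb, with adjusted p = 0.999. Here too the groups overlapped for each of the 8, while 1.04% of all tested genes had no overlap.

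Subtracting the wild-type cold response from that of the knockouts gave a difference that passed for 0 of the 8 members and for 0.00801% of all tested genes in edgeR. None had an unadjusted p below 0.05, and 0 passed by DESeq2 or limma. The difference was 0.72 ± 0.73 for Atf3, 0.35 ± 0.24 for Jun, 0.14 ± 0.42 for Fosl2, 0.22 ± 0.31 for Jund and 0.43 ± 0.34 for Dusp1 on the log2 scale (SE, adjusted p = 1). For Fos, Fosb and Junb it was -0.72 ± 1.19, 0.85 ± 1.17 and 0.30 ± 0.62. A larger cold response in knockouts was therefore not shown for any of the 8, and errors of this size leave room for a difference in either direction for each of them.

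Libraries within a group differed together across several of these genes. Replicate 1 of the warm knockouts was the highest of its group for 4 of the 8 members (Fos, Fosb, Junb and Dusp1) and replicate 1 of the warm wild types for 5 of the 8 (those 4 and Jun). Replicate 1 of the cold wild types was likewise the highest of its group for 5 of the 8. Over all tested genes these 3 libraries were the highest of their group for 21.7%, 28.4% and 18.6%. Among 24 tested other immediate-early genes they were the highest for 12, 9 and 8, and replicate 2 of the cold knockouts, the highest for 17.5% of all tested genes and for 2 of the 8 members, was the highest for 12. Among 12 tested textbook targets of AP-1, the warm knockout replicate 1 was the highest for 0 and the warm wild-type replicate 1 for 6. On the low side, warm knockout replicate 4 was the lowest of its group for Fosl2, Jun, Junb, Jund, Atf3 and Dusp1. Cold wild-type replicate 4 was the lowest of its group for Fos, Fosl2, Jun, Atf3 and Dusp1. For the lowest libraries the share over all tested genes was not computed, and the cause was not tested. Leaving out both warm replicates 1, an alternative added after the data were seen, left 3 of the 8 members called in each genotype (Fosl2 and Jund were lost in both, adjusted p between 0.0503 and 0.0858).

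The genes whose pattern over the 17 libraries was most like that of Atf3 were taken by the smallest root mean square difference of centred log2 CPM. They were Slc7a1 (0.549), a cationic amino acid transporter gene, Plk3 (0.588), a stress-responsive kinase gene, Ppargc1a (0.625), the coactivator of mitochondrial biogenesis, Hmox1 (0.714), which encodes haem oxygenase 1, and Hspa1a (0.731), an Hsp70 gene. The median over all genes was 1.756. Since they were chosen by likeness to Atf3 over the same warm and cold libraries, a rise in the cold follows from the choice, and their cold log2 changes are given as a description, at 2.04 to 3.66 in wild types and 2.59 to 3.69 in knockouts. Hspa1a has a near-identical copy, Hspa1b, so its counts are uncertain. Warm wild-type replicate 2, the highest of its group for Atf3, was also the highest for Ppargc1a (493 CPM against 92.4 to 116) and Hmox1 (47.4 CPM against 4.60 to 6.02). That library was among the 17 used for the choice, so this likeness too is only a description.

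**Figure D4:**
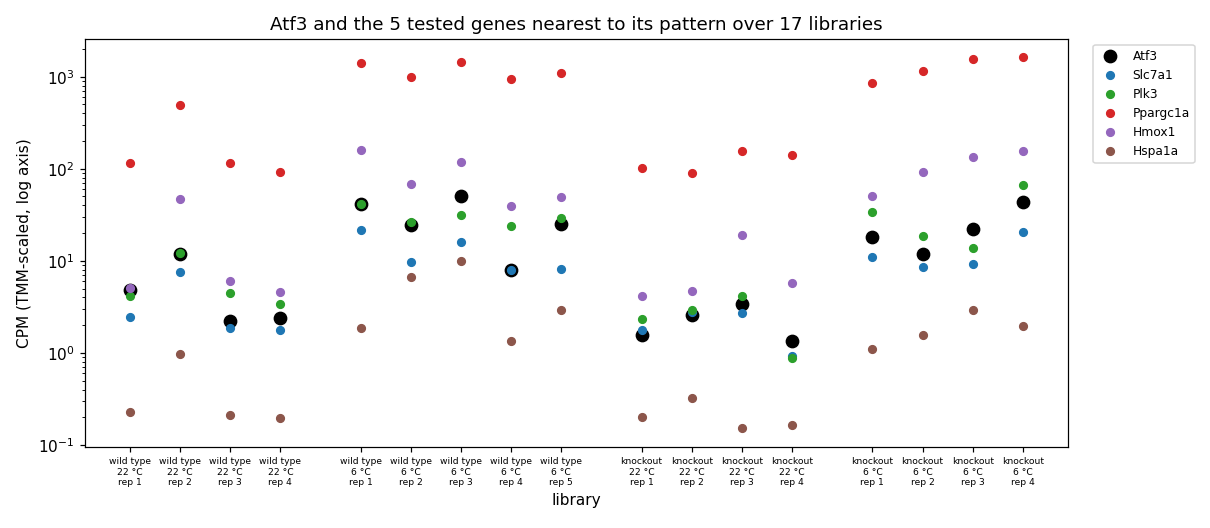
CPM of Atf3 and of the 5 genes most like it (vertical axis, log scale) in each of the 17 libraries, ordered by group (horizontal axis); each colour is a gene and the large black points are Atf3. The genes step up together from the 22 °C to the 6 °C groups, and in warm wild types replicate 2 is the highest library for Atf3 (11.7 CPM) and for Ppargc1a (493 CPM). The genes were chosen by likeness to Atf3 over these same libraries.

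No gene followed Fos as closely. The nearest were Btg2 (1.037), an antiproliferative immediate-early gene, Dsp (1.055), a desmosome gene, Cdh11 (1.075), a cadherin gene, Stc2 (1.077), which encodes a secreted glycoprotein, and Hcn2 (1.088), an ion channel gene, beside a median of 1.508 over all genes. Several of them were low: Dsp reached at most 1.29 CPM and was at 0 CPM in many libraries, and Cdh11 and Stc2 reached at most 1.57 and 2.13 CPM. Btg2 measured 24.9 CPM in warm knockout replicate 1 and 6.37 to 9.46 CPM in the other 3 of that group. These 5 genes were chosen by likeness to Fos over the same warm and cold libraries, so their cold changes are only a description. Of these 5 genes, Cdh11 fell in wild types (log2 -0.87, edgeR adjusted p = 0.0477) and none passed in knockouts.

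Of 20 tested bZIP partners and relatives, 10 rose and 0 fell in wild types (median log2 change 0.636), and 10 rose and 1, Atf7, fell in knockouts (0.654). Over all tested genes, 14.3% rose and 13.3% fell in wild types, and 11.6% and 10.0% in knockouts. Of the wild-type zero, 2 genes were lower at an unadjusted p below 0.05, and DESeq2 called 0 and limma on log2(RPKM + 1) 2. Maff, a small Maf protein gene, went from 2.75 ± 1.94 to 13.9 ± 1.36 CPM in wild types and from 2.33 ± 0.545 to 11.9 ± 4.36 CPM in knockouts (log2 2.35 ± 0.35 and 2.38 ± 0.36, edgeR adjusted p = 0.000168 and 0.000269). Atf4, the factor of the integrated stress response, rose by 1.36 ± 0.18 and 1.72 ± 0.19 (log2, SE). The 10 macrophage markers summed to 56.6 to 82.7 CPM in warm and 54.2 to 79.3 CPM in cold wild types, and to 51.8 to 59.8 and 62.2 to 100.2 CPM in warm and cold knockouts, with none of the 10 at 0 in any group. In knockouts these ranges did not overlap, and their part in the member and list values was not tested. The 8 type 1 dendritic cell markers summed to 19.8 to 25.5 and 14.1 to 16.3 CPM in warm and cold wild types and to 22.5 to 26.7 and 13.3 to 20.3 CPM in warm and cold knockouts, lower in the cold without overlap, with none of the 8 at 0, and their part was not tested either. Naaa and Tlr3 had the highest means of the 8, 7.35 and 6.36 CPM over all libraries, and both fell in wild types. In knockouts Tlr3 fell while Irf8 rose (log2 0.91 ± 0.30, SE, edgeR adjusted p = 0.0362), so the markers did not move together.

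Of the 16 tested MAP kinase genes that act on AP-1, 4 rose and 1 fell in wild types (median 0.0778), and 2 rose and 2 fell in knockouts (-0.0167). Beside the 14.3% higher and 13.3% lower of all tested genes in wild types and the 11.6% and 10.0% in knockouts, these counts were near the background in knockouts. Map2k3, which encodes a p38 activator, rose (log2 0.80 ± 0.15 and 0.62 ± 0.16), and Map3k1, an upstream kinase of the JNK branch, fell (-0.88 ± 0.15 and -1.12 ± 0.16, SE). Map3k8 rose in wild types (0.82 ± 0.24) and was at 0.61 ± 0.25 without passing in knockouts (adjusted p = 0.0922). Mapk14, p38 alpha, fell in knockouts (-0.50 ± 0.15) and was at -0.24 ± 0.14 without passing in wild types (adjusted p = 0.211). The 6 tested genes of serum response factor (SRF) and its cofactors were Srf, Elk1, Elk3, Elk4, Mkl1 and Mkl2. Of these, 0 rose and 2 fell in wild types (median 0.0365), and 2 rose and 1 fell in knockouts (0.21). The shares of all tested genes were 14.3% and 13.3% in wild types and 11.6% and 10.0% in knockouts. None of the 6 was higher at an unadjusted p below 0.05 in wild types, and DESeq2 and limma on log2(RPKM + 1) called 0 higher. Elk3, a repressor of this group, fell in both (-0.71 ± 0.15 and -0.59 ± 0.16), and Mkl2 fell in wild types (-0.43 ± 0.12) and was at -0.30 ± 0.13 in knockouts (SE, adjusted p = 0.113). Srf and Elk1 rose in knockouts (0.75 ± 0.25 and 0.48 ± 0.12) and were at -0.03 ± 0.23 and 0.10 ± 0.11 in wild types (SE, adjusted p = 0.944 and 0.529). For these genes the difference between genotypes did not pass. For Srf the cold knockouts ranged from 10.4 to 27.3 CPM.

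Among the other dual-specificity phosphatase genes, 3 rose and 2 fell of 8 tested in wild types (median 0.27), and 4 rose and 2 fell in knockouts (0.898), beside 14.3% and 13.3% of all tested genes in wild types and 11.6% and 10.0% in knockouts. Dusp8, which acts on JNK and p38, rose from 3.46 ± 2.04 to 10.1 ± 1.51 CPM in wild types and from 2.48 ± 1.83 to 9.83 ± 3.48 CPM in knockouts (log2 1.67 ± 0.41 and 2.17 ± 0.44, edgeR adjusted p = 0.00595 and 0.00213). Dusp16, which acts mainly on JNK, rose by 1.52 ± 0.19 and 1.62 ± 0.20, and Dusp14 changed by -1.55 ± 0.42 and -1.78 ± 0.45 (log2, SE), a fall in both. The other passing genes of this list, named after their values were seen, were Dusp6, which rose in both (0.76 ± 0.18 and 1.37 ± 0.19), Dusp7, which fell in both (-1.17 ± 0.14 and -0.99 ± 0.16), and Dusp10, which rose in knockouts (0.87 ± 0.28) and was at 0.17 ± 0.26 in wild types (log2, SE, adjusted p = 0.669).

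Of 24 tested other immediate-early genes, 9 rose and 1 fell in each genotype (medians 0.237 and 0.402), beside 14.3% and 13.3% of all tested genes in wild types and 11.6% and 10.0% in knockouts. Maff, which rose in both genotypes, is counted both here and among the bZIP partners and relatives. Arc, a synaptic immediate-early gene, went from 0.702 ± 0.714 to 4.95 ± 1.93 CPM in wild types and from 0.461 ± 0.362 to 3.76 ± 1.67 CPM in knockouts (log2 2.80 ± 0.57 and 2.94 ± 0.62, edgeR adjusted p = 0.0019 and 0.0029). Nr4a3, an orphan nuclear receptor gene, rose in both genotypes (1.44 ± 0.42 and 2.38 ± 0.46, SE, adjusted p = 0.0167 and 0.00158). Egr3, a zinc-finger factor gene, fell in wild types (-2.26 ± 0.69, SE, adjusted p = 0.0213) and had a similar value that did not pass in knockouts (-2.10 ± 0.76, adjusted p = 0.0582). Of 12 tested textbook targets of AP-1, 6 rose and 1 fell in wild types (median 0.61), and 4 rose and 1 fell in knockouts (0.631), beside the same shares of all tested genes, 14.3% and 13.3% and then 11.6% and 10.0%. Those that rose in both genotypes included Hmox1 (3.26 ± 0.61 and 3.66 ± 0.61) and Plaur, the urokinase receptor gene (1.80 ± 0.38 and 2.52 ± 0.44, log2, SE). The targets that fell, named after their values were seen, were Mmp9 in wild types (-1.20 ± 0.32, edgeR adjusted p = 0.0102) and Plau in knockouts (-0.79 ± 0.24, adjusted p = 0.0235). The rest of the 20 listed targets had too few reads to be tested. Across the 6 lists, 0 genes passed in edgeR or limma on log2(RPKM + 1) in any genotype comparison or in the difference between cold responses. There a list had at most 3 genes in one direction under an unadjusted edgeR p of 0.05. At 22 °C these were 3 of 8 tested phosphatase genes and 3 of 20 tested bZIP genes, all lower in knockouts. Of all tested genes, 3.89% were under that value at 22 °C, 3.15% at 6 °C and 2.48% for the difference between cold responses. DESeq2 called 1 phosphatase gene lower in knockouts at 22 °C, where it called 10 of all tested genes lower and 0 higher.

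**Figure D5:**
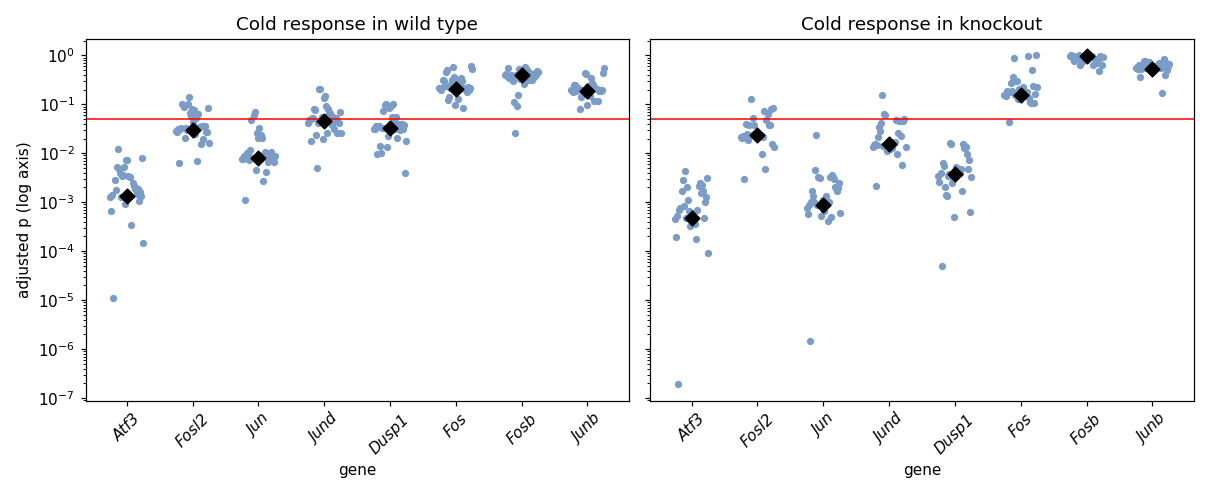
Adjusted p of the cold response of each tested gene (vertical axis, log scale) under every alternative run, in wild types and knockouts; the black diamond is the value reported, the dots are the alternatives and the line is 0.05. All dots of Atf3 lie under the line in both genotypes (adjusted p at most 0.0123 and 0.00441), while those of Fosl2 and Jund in wild types spread across it.

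Across the 32 alternatives of the cold response, Atf3 passed in all 32 in both genotypes, with log2 changes from 1.95 to 3.45 in wild types and from 2.39 to 3.71 in knockouts. Jun passed in 30 and 32, Dusp1 in 24 and 32, Fosl2 in 21 and 26 and Jund in 15 and 28, in wild types and knockouts. Every value of these 5 genes stayed above 0 in all of them. Jun, Junb and Jund each share exonic bases with a gene on the opposite strand (232 with Junos, 173 with Prdx2 and 877 with Gm11175), so part of their counts could belong to those genes. Prdx2 had log2 changes of -0.14 and -0.10 in the cold, and Junos and Gm11175 were not analysed here.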

How the data were processed

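Brown fat mRNA of 17 mice was sequenced, 1 library per mouse, in 4 groups taken from the sample titles. Per the submitters' processing notes, reads were processed with STAR and HTSeq, the builds named are mm10 and GRCm38.p6, and versions, annotation and strand setting are not given. The authors deposited raw read counts per gene symbol and RPKM values. Counts divided by RPKM and the column total gave 1 length per gene (largest relative SD 4.93e-15), so RPKM is scaled to total counts. The number of per-sample columns left unassigned was 0.

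Counts were filtered with filterByExpr, scaled by TMM and fitted in R 4.3.3 with edgeR 4.0.16 (quasi-likelihood, 1 fit of 17 libraries, 4 group means and labelled sex as a term, 12 residual degrees of freedom). P values were adjusted by Benjamini-Hochberg over 12486 genes at a threshold of 0.05, and "rose" and "fell" mean adjusted p below 0.05. SE was derived from the test, as the absolute log2 change divided by the square root of the quasi-likelihood F. CPM is TMM-scaled. Replicates are separate mice. Reads carry no molecular identifiers. No pair of libraries in a group agreed within sampling noise (chi-square per degree of freedom at least 21.73). Replicate numbers were not treated as pairs in the reported fit.

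Members and lists were chosen with earlier results of these data known. Besides the members, up to 3 passing genes per list and cold comparison, by size of change, and the 5 genes most like Atf3 and most like Fos were named. Some genes that this rule takes are not reported here. Alternatives used limma 3.58.1, DESeq2 1.42.0, other filters, scalings and covariates, and left out each library. Gene positions are from GENCODE vM21 on GRCm38, promoters from RefSeq, and motif letters were searched on both strands. The procedure was tested on simulated data.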

Additional observations from a re-analysis of the deposited data

Results flagged for a closer look

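Among the 32 groups of 4 or 5 libraries examined (8 genes in 4 groups), 2 held a library far from the others. The cut-off flags about 1 group in 20 by chance where values are independent and normally distributed. The 8 genes share the same libraries and CPM need not be normally distributed, so that rate may not hold here. Both were replicate 1 of the knockouts at 22 °C, the female of that group. Fos measured 13.13 CPM there and 0.4811 CPM in the next highest library, a gap of 0.989 of the whole range. Dusp1 measured 47.25 CPM there and 24.87 CPM in the next, a gap of 0.835 of the range. Without that library the knockout cold response of Fos was -0.11 (log2), while that of Dusp1 passed in all 32 alternatives.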

How the results depend on the processing

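The cold responses of Atf3 in both genotypes and of Jun and Dusp1 in knockouts kept their direction and passed in all 32 alternatives. The number of members called in wild types, 5 in the reported fit, was 3 with the replicate number as a block with or without sex, 1 in both limma fits on log2 RPKM (pseudocounts 1 and 0.1), 3 without replicate 1 of both warm groups (an alternative added after seeing the data, as was leaving out warm replicate 2 and cold replicate 4 of the wild types), and 2 to 5 with each library left out. In knockouts it was 3 with the majority sex alone, with limma on log2(RPKM + 1) and without both warm replicates 1, and 4 to 5 with each library left out. With no filter on low counts it was 6 in each genotype, Fosl1 being added. Whether the replicate numbers pair the samples was not settled. In a check, 4 of 8 wild-type and 0 of 8 knockout libraries correlated best with their own number at the other temperature. So few libraries cannot exclude a pairing, and wild-type cold replicate 5 has no counterpart. Under that block Fosl2 and Jund did not pass in wild types (0.71, adjusted p = 0.101, and 0.64, adjusted p = 0.0789 with sex, and 0.72, adjusted p = 0.0864, and 0.63, adjusted p = 0.0747 without sex).

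Over all genes, the 2697 called in the knockout cold response became 1589 when only the compared groups were fitted and 740 with males alone, and 1961 to 2834 with each library left out. In wild types the 3450 became 2605 to 3872. The 2 genes called between genotypes at 22 °C became 10 with DESeq2, 4 with no sex term and in both limma fits, 0 with the block and sex or with the compared groups alone, 1 with the block without sex and in both added alternatives, and 1 to 3 with each library left out. The 5 called at 6 °C became 12 with DESeq2, 3 with age, with the compared groups alone, with limma on log2(RPKM + 1) and in both added alternatives, and 3 to 5 with each library left out.

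Of all values, 49 changed sign under an alternative, and in none of them did either value pass. In the knockout cold response, Fos became 0.18 with males alone, Fosb 0.10 with DESeq2, 0.37 with the block and sex, 0.0036 with the compared groups alone, 1.06 with males alone and 0.81 without both warm replicates 1, and Junb 0.28 with males alone and 0.32 without those 2 libraries. At 22 °C, Fos became -0.12 and -0.52 with the block with and without sex, -0.21 with limma on log2(RPKM + 0.1) and -1.73 without both warm replicates 1, Fosb 0.13 with the compared groups alone, and Junb -0.15 with the block without sex, -0.0615 and -0.21 in the limma fits and -0.69 without both warm replicates 1. At 6 °C, Fos became 0.0733 with limma on log2(RPKM + 1), Fosb -0.0943 with no sex term, -0.0414 with the block without sex, -0.56 with the compared groups alone and -0.0444 without both warm replicates 1, and Jund 0.0324 with the compared groups alone. In the difference between cold responses, Fos became 0.36 without both warm replicates 1, and Fosl2 -0.0439 and Atf3 -0.0033 without warm replicate 2 and cold replicate 4 of the wild types. With each library left out, the ranges that crossed 0 were -1.12 to 0.81 for Fosb and -0.81 to 0.28 for Junb in the knockout cold response, -2.26 to 0.91 for Fos and -0.90 to 0.40 for Junb at 22 °C, -1.14 to 0.58 for Fos, -0.49 to 1.31 for Fosb and -0.11 to 0.0204 for Jun at 6 °C, and -1.40 to 1.12 for Fos, -0.20 to 1.87 for Fosb, -0.0615 to 0.51 for Fosl2 and -0.0651 to 0.997 for Junb in the difference between cold responses. The causes of these changes were not tested. Depth limited Fosl1 and Batf3, read 0 to 14 and 0 to 4 times per library, and Fos and Fosb in most libraries.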
